A study of Mus musculus with 3 samples.

Results

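The replication-dependent histone genes of the mouse were measured on 3 single-colour Agilent arrays of muscle RNA. A probe was taken as a member when the gene name in the scanner files was Hist1, Hist2, Hist3 or Hist4 followed by an H1, H2A, H2B, H3 or H4 gene letter code, and controls were left out. This gave 44 probes for 34 gene names, of 41169 probes and 27957 names in all. All 34 names were found among the synonyms of the RefSeq gene table, and 36 of the 44 probes were also named through their accession. The linker histone H1 had 8 probes for 6 names. Among the core histones, H2A had 15 probes for 11 names, H2B 10 for 8, H3 3 for 3 and H4 8 for 6. By gene cluster, 30 probes belonged to Hist1, 7 to Hist2, 5 to Hist3 and 2 to Hist4.

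The 3 groups were male mice aged 6 weeks, sampled after 14 days: swimming mice whose food held 0.5% Chlorella powder, swimming mice on normal food and nonswimming mice on normal food. Chlorella is a unicellular green alga. RNA of 10 mice per group was pooled before labelling and hybridised to 1 array, so there was no replicate, no test between groups was possible, and no difference below has a replicate check. The pool does not show how single mice differed, and neither the strain nor the muscle sampled is stated in the labels.

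Core histones form the protein spool around which DNA is wrapped, and H1 binds the DNA between spools. Replication-dependent histone genes lie in clusters, lack introns and are transcribed mainly in S phase, when new DNA has to be packaged. Their mRNAs usually end in a stem-loop bound by the protein Slbp in place of a poly(A) tail, and fibres of adult skeletal muscle have left the cell cycle. The priming of the labelling reaction is not stated in the labels, so how it takes up mRNAs without a poly(A) tail is unknown. Histone paralogs of a class have nearly identical coding sequences: 23 of the 44 probes list 1 RefSeq transcript in the scanner files, 14 list several and 7 list none. A value with a gene name can therefore include signal of its paralogs.

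Signals are given as multiples of the array's 75th percentile, called scaled signal here, which was 237.8 (Chlorella swimming), 295.0 (swimming) and 285.9 (nonswimming) intensity units. Each log2 ratio carries the technical error that the scanner software assigns to the spots, which leaves out variation between mice. Levels of different probes cannot be set against each other, since probes differ in how strongly they bind. On each array 35 of the 44 histone probes were well above background. Of the 44 probes, 34 (28 gene names) were measured on all 3 arrays, 3 on 1 array only and 7 on none. No histone probe was saturated, after spots with an outlier flag had been dropped. All 9 skeletal muscle markers, such as Ckm and Acta1, were well above background on every array, with a summed scaled signal of 5659 in Chlorella swimming mice, 4523 in swimming mice on normal food and 4967 in nonswimming mice.

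The promoters of 5 genes are shown because they belong to the members that were far apart between the arrays and whose probe lists 1 RefSeq transcript on the gene's strand (Hist1h1b, Hist1h2ab and Hist1h2ak) and to members of the same classes or of H2B that stayed close (Hist1h1c and Hist1h2bk). Both Hist1h2bk probes list 4 RefSeq genes, so their values cannot be assigned to Hist1h2bk alone. Each run is the 200 bases before the transcript start, 5′ to 3′ on the gene's strand, from RefSeq promoters of GRCm38.p6. Capitals mark matches on either strand to CCAAT (the NF-Y box), to TATAAA (the TBP or core promoter box), to ATTTGCAT (the octamer of histone promoters) and to AAACACA (the H1 box); no matches to different motifs overlap in these runs.
Hist1h1b, chr13:21780626-21780825, minus strand: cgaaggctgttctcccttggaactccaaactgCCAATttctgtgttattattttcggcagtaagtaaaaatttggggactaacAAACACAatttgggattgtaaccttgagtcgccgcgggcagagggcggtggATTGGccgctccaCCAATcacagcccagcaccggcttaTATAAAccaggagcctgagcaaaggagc
Hist1h1c, chr13:23738607-23738806, plus strand: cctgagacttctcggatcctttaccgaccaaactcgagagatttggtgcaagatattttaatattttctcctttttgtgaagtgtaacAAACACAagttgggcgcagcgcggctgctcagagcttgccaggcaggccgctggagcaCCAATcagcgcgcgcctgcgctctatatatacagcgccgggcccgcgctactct
Hist1h2ab, chr13:23750888-23751087, plus strand: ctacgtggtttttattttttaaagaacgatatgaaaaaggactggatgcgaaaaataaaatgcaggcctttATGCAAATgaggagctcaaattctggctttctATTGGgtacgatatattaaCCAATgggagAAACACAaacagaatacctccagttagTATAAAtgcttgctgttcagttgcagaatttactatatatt
Hist1h2ak, chr13:21753913-21754112, minus strand: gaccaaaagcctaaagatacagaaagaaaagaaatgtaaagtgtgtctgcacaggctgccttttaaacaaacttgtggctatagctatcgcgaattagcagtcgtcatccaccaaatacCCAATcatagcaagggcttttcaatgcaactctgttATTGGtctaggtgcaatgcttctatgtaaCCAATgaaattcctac
Hist1h2bk, chr13:22035621-22035820, plus strand: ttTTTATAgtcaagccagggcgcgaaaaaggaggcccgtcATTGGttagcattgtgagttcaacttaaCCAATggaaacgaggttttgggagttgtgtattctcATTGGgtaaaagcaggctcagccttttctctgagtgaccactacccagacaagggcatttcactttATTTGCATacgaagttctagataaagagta
In the 250 bases before the start, a promoter was at hand for 29 of the 34 gene names. At least 1 CCAAT match was present in 25 of these 29 (86.2%), against 33.8% of all 32851 promoters of that length. TATAAA was present in 16 (55.2%, all promoters 12.4%), ATTTGCAT in 9 (31.0%, all promoters 1.6%) and AAACACA in 9 (31.0%, all promoters 6.25%). AAACACA occurred in 5 of the 6 H1 promoters, all but that of Hist1h1a, and began at positions -122 to -112 in each. ATTTGCAT occurred in 6 of 11 H2A and 3 of 5 H2B promoters and in none of the H1, H3 and H4 promoters. The Hist1h2aa and Hist1h2ba genes face away from each other and their promoters overlap, so they share matches. Of the H2A genes with large ratios below, Hist1h2ab and Hist1h2aa hold the octamer while Hist1h2af, Hist1h2ai and Hist1h2ak do not, and probes of Hist1h2af and Hist1h2ai list transcripts of other genes too. The Hist1h2aa probe had values near those of 1 Hist1h2af probe. These are letter matches, not shown binding sites.

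**Figure D1:**
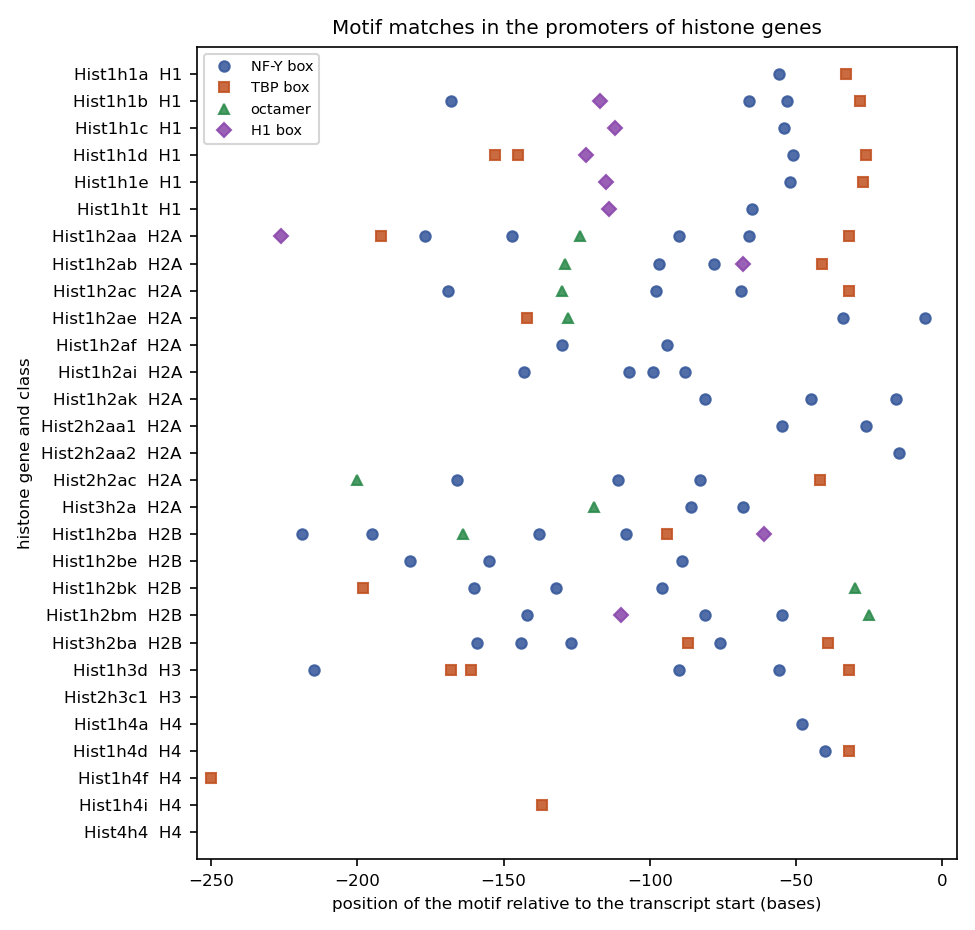
Positions of motif matches (x axis, bases relative to the transcript start) in the promoters of 29 histone genes (y axis, ordered by class). Circles are CCAAT (the NF-Y box), squares TATAAA (the TBP box), triangles ATTTGCAT (the octamer) and diamonds AAACACA (the H1 box); diamonds of 5 H1 genes line up between -122 and -112.

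The first comparison set swimming against nonswimming mice on normal food. Most histone probes were higher in swimming mice, and the largest ratios were those of one H1 gene and several H2A genes. Swimming mice had 6 of the 34 comparable probes (17.6%) at least 2-fold higher, against 4.33% of all 23128 probes measured on both. None of the 34 was at least 2-fold lower, against 1.08% of all probes. The median log2 ratio was 0.30 for the histone probes and -0.05 for all probes, and 32 histone probes lay above 0 and 2 below. Many of the small ratios lay within their scanner error, whose median over the histone ratios was 0.2. Of all probes, 9901 lay above 0 and 13227 below. In pooled bulk RNA, more cells of a type and more RNA per cell cannot be told apart.

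Hist1h1b, which encodes the linker histone H1.5, had a scaled signal of 0.353 in swimming mice and 0.0625 in nonswimming mice. Its log2 ratio was 2.50 ± 0.23 (5.66-fold), the largest of the 34 probes. With normexp background correction it was 1.17, under the 1.93 that the Hist1h2ak and the dimmer Hist1h2af probe had with it. Normexp here adds 50 intensity units to every signal, which draws the ratios of dim probes toward 0. The Hist1h1b signals were 104.3 units in swimming mice and 17.87 in nonswimming mice. The Hist1h2ak probe, which lists 1 RefSeq transcript, had a scaled signal of 1.97 in swimming mice and 0.374 in nonswimming mice, a log2 ratio of 2.40 ± 0.20. Hist1h2ai stood at 0.946 in swimming mice and 0.188 in nonswimming mice, a log2 ratio of 2.33 ± 0.21 (1.58 with normexp). The Hist1h2ai probe lists transcripts of 4 RefSeq genes and runs against the RefSeq strand of Hist1h2ai, so its value cannot be assigned to that gene alone. Hist1h2ak and Hist1h2ai both encode H2A, the core histone that pairs with H2B. The Hist1h2ak ratio lay near those of the Hist1h2ai and the dimmer Hist1h2af probe in all 3 comparisons. Whether the Hist1h2ak value holds signal of its paralogs was not tested.

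The 2 probes of Hist1h2af, another H2A gene of the Hist1 cluster, lie 308 bases apart in the files' coordinates and gave different sizes. The dimmer probe had a scaled signal of 3.57 in swimming mice and 0.735 in nonswimming mice, a log2 ratio of 2.28 ± 0.20. The brighter probe had 55.0 in swimming mice and 26.2 in nonswimming mice, a log2 ratio of 1.07 ± 0.20. In the authors' value table the brighter probe had 1.68. Both list several RefSeq transcripts, the dimmer one 4 and the brighter one 2, and the ratios differ by more than their scanner errors. Hist1h2aa, an H2A gene known from testis, had 54.0 in swimming mice and 25.3 in nonswimming mice, a log2 ratio of 1.10 ± 0.20. Its probe lists 1 RefSeq transcript, but its values lay near those of the brighter Hist1h2af probe on every array. In Chlorella swimming mice they were 30.3 for Hist1h2aa and 31.0 for that probe. Whether the Hist1h2aa value holds signal of its paralogs was not tested. With arrays centred on their median in place of the 75th percentile, Hist1h2aa (0.94) and the brighter Hist1h2af probe (0.92) fell short of 2-fold, and the median of all probes was -0.20. The male germ cell markers were dim on all arrays, with 3, 4 and 2 of 6 well above background on the Chlorella swimming, swimming and nonswimming arrays.

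Hist1h2ab was well above background on the swimming array only. Its signal was 43.61 intensity units in swimming mice and 3.403 in nonswimming mice, where the lowest signal well above background was 6.45. It was at least 6.55-fold higher in swimming mice. Of all 1729 probes that were well above background on the swimming array but not on the nonswimming array, 31.8% were at least 2-fold higher by the same bound. Hist1h2ab is the only histone probe of that kind.

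Just short of 2-fold were Hist3h2ba, an H2B gene, with 0.243 in swimming mice and 0.125 in nonswimming mice (log2 ratio 0.95 ± 0.22), and Hist2h2ac, an H2A gene, with 40.1 in swimming mice and 21.6 in nonswimming mice (0.89 ± 0.20). The Hist2h2ac probe lists 4 RefSeq genes, runs against the RefSeq strand of Hist2h2ac and lies 249 bases from the Hist2h2aa1 probe, whose log2 ratio was 0.20 ± 0.20. The second Hist1h1d probe followed with a log2 ratio of 0.88 ± 0.22, and 1.68 in the authors' value table. Apart from Hist1h1b, the H1 genes ran from 0.07 ± 0.20 for Hist1h1c to that value, with Hist1h1e at 0.65 ± 0.20, Hist1h1a at 0.62 ± 0.22 and the first Hist1h1d probe at 0.58 ± 0.21. Hist1h1c encodes H1.2, and it is one of the members for which polyadenylated transcripts are known. The 3 such members that were measured, Hist1h1c, Hist1h2bc and Hist2h2be, had log2 ratios of 0.07, 0.31 and 0.25.

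The size of the ratios varied by class. The median log2 ratio was 0.98 over 10 H2A probes, of which 5 were at least 2-fold higher, and 0.64 over 6 H1 probes, of which 1 was. It was 0.16 over 9 H2B probes, 0.36 over 2 H3 probes and 0.19 over 7 H4 probes, with none at least 2-fold higher. The H2B probes other than Hist3h2ba ran from -0.06 for Hist1h2be to 0.31 for Hist1h2bc. The H3 probes Hist1h3d and Hist2h3c1 stood at 0.37 and 0.35. The H4 probes ran from 0.08 to 0.64, and both ends belong to Hist1h4d, whose 2 probes lie 158 bases apart: the probe that lists 4 transcripts gave 0.08 ± 0.20 and the one that lists 1 gave 0.64 ± 0.20. No class difference was tested, and probes of a class may share signal.

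**Figure D2:**
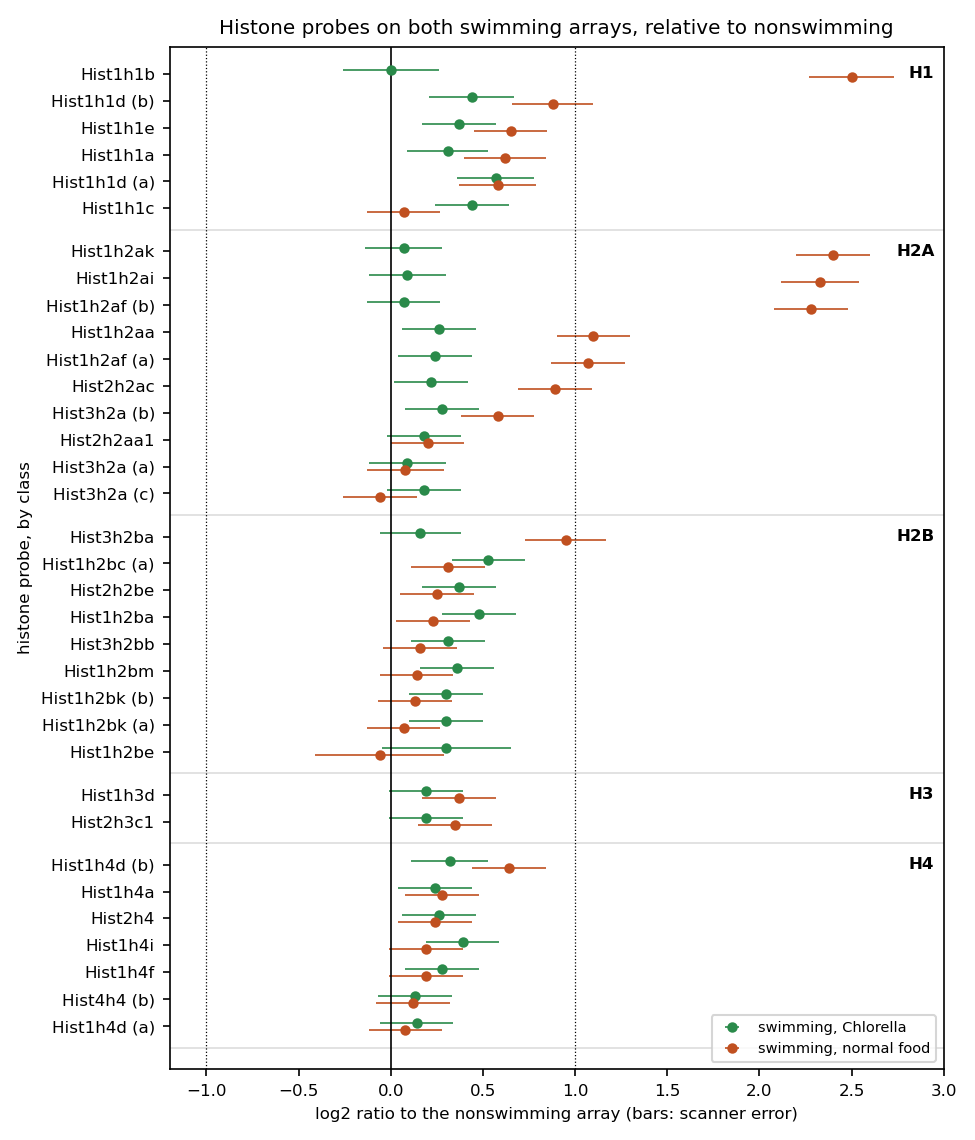
Log2 ratio to the nonswimming array (x axis) of the 34 histone probes measured on all arrays (y axis, by class and by size), for swimming mice with Chlorella (green) and swimming mice on normal food (orange). Bars are scanner errors, dotted lines mark 2-fold and letters in brackets number probes of one gene; 6 orange points lie beyond 2-fold and no green point does.

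Summed markers of the neutrophil, erythroid and B cell lineages, of bone and cartilage and of adipocytes were highest in swimming mice on normal food, as were most H1 and H2A probes. Over 9 neutrophil lineage markers, the summed scaled signal was 3.492 in Chlorella swimming mice, 278.6 in swimming mice on normal food and 16.53 in nonswimming mice. The brightest probe weighs most in such a sum, and S100a9 alone had 2.83, 207.0 and 12.2 on these arrays. All 9 neutrophil markers had a log2 ratio above 0 in swimming against nonswimming mice. The 8 erythroid markers summed to 2.002 in Chlorella swimming mice, 16.59 in swimming mice on normal food and 3.425 in nonswimming mice. The 8 B cell markers summed to 0.7515 in Chlorella swimming mice, 6.025 in swimming mice on normal food and 0.8738 in nonswimming mice. These values were 3.313, 23.11 and 7.637 for 7 bone and cartilage markers and 66.76, 156.9 and 59.81 for 6 adipocyte markers, on the Chlorella swimming, swimming and nonswimming arrays. On the swimming array the bone marker Bglap alone had 13.7 and the adipocyte marker Cidec alone 71.3. The 7 keratinocyte markers followed another order, with 2.162 in Chlorella swimming mice, 1.894 in swimming mice on normal food and 7.737 in nonswimming mice. Well above background on the swimming array were all 9 neutrophil, 8 erythroid, 8 B cell and 7 bone and cartilage markers, against 8, 2, 4 and 6 on the Chlorella swimming array and 9, 5, 6 and 6 on the nonswimming array. All 6 adipocyte markers were well above background on each array. No marker was listed at 0. The part of these cells in the histone ratios was not tested.

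The second comparison set Chlorella against normal food in swimming mice. It shares the swimming array with the first, so the opposite direction of the ratios below is not separate evidence. The histone genes with the largest ratios in the first comparison were the ones that were lower with Chlorella. With Chlorella, 4 of the 34 comparable probes (11.8%) were at least 2-fold lower, against 4.09% of all 22954 probes measured on both. None was at least 2-fold higher, against 1.52% of all probes. The median log2 ratio was -0.01 for the histone probes and 0.08 for all probes, with 16 histone probes above 0 and 18 below. Among all probes, 13963 lay above 0 and 8991 below. Of the 34 histone probes, 12 lay above the median of all probes.

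Hist1h1b had a scaled signal of 0.0625 with Chlorella and 0.353 on normal food, a log2 ratio of -2.50 ± 0.24. Hist1h2ak had 0.393 with Chlorella and 1.97 on normal food (-2.33 ± 0.21), and Hist1h2ai 0.199 with Chlorella and 0.946 on normal food (-2.25 ± 0.21). The dimmer Hist1h2af probe had 0.769 with Chlorella and 3.57 on normal food (-2.21 ± 0.20). These 4 probes are the ones past 2-fold, and with normexp background correction Hist1h1b stood at -0.99 and Hist1h2ai at -1.45. The brighter Hist1h2af probe and Hist1h2aa, both at -0.83 ± 0.20, Hist3h2ba at -0.79 ± 0.22 and Hist2h2ac at -0.67 ± 0.20 were lower by less than 2-fold. In the authors' value table the brighter Hist1h2af probe had -1.55.

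Hist1h2ab had 1.728 intensity units with Chlorella and 43.61 on normal food, and was at least 5.61-fold lower with Chlorella. Among all 1903 probes well above background on the swimming array but not on the Chlorella array, 28.7% were at least 2-fold lower by the same bound. H2A had a median log2 ratio of -0.75 (3 of 10 probes at least 2-fold lower) and H1 of -0.29 (1 of 6). The H2B median was 0.22, the H4 median 0.03 and that of the 2 H3 probes -0.17, and no probe of these classes was past 2-fold. Among H2B, 8 of 9 probes lay above 0, with Hist3h2ba as the exception, against 13963 of all 22954 probes. At or above the median brightness of the histone probes, 3714 of all 5180 probes lay above 0. Both Hist1h2bk probes and the Hist1h2bm probe each list 4 RefSeq genes, so they may share signal. The highest ratio of all histone probes was 0.38 ± 0.20 for Hist1h1c, at 37.0 with Chlorella and 28.5 on normal food.

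**Figure D3:**
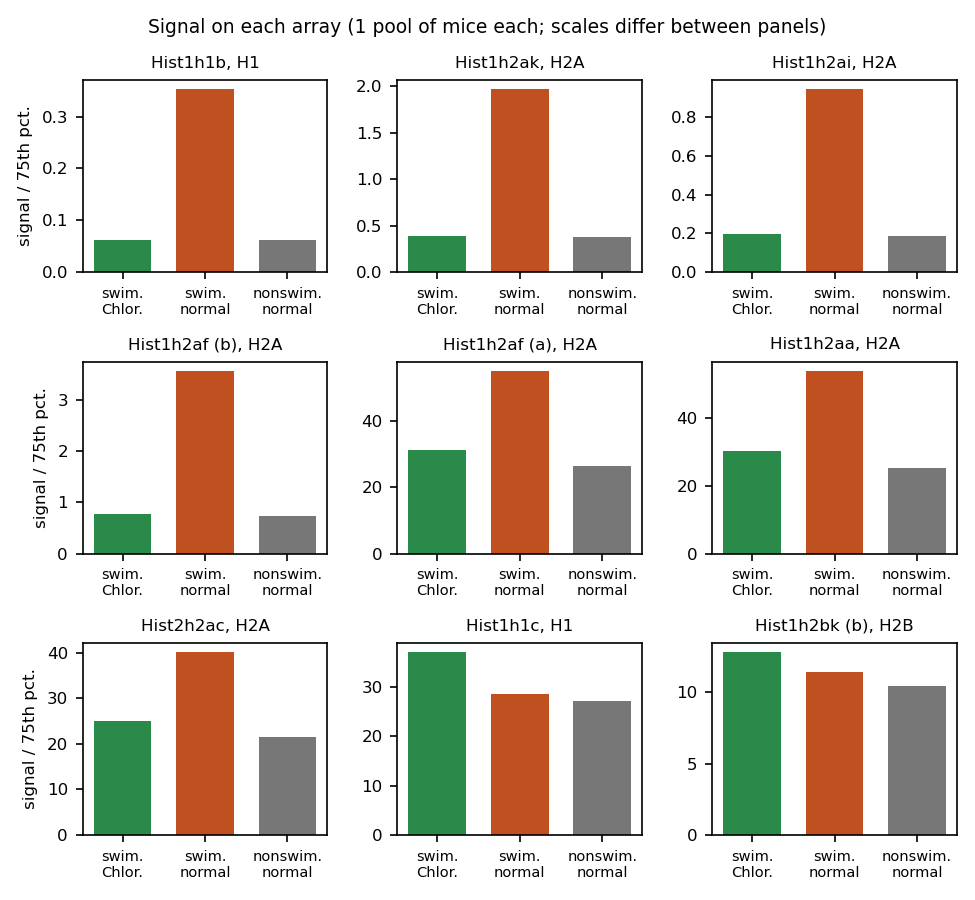
Scaled signal (y axis, multiples of the array's 75th percentile, starting at 0, with its own scale in each panel) of 9 histone probes on the Chlorella swimming, swimming and nonswimming arrays (x axis, 1 bar per array). The first 7 panels are highest on the swimming array; Hist1h1c and the second Hist1h2bk probe are highest on the Chlorella array.

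The third comparison set Chlorella swimming mice against nonswimming mice on normal food, which differ in both exercise and food. It shares the nonswimming array with the first comparison and the Chlorella array with the second, so its ratios are not separate evidence. No histone probe was at least 2-fold higher, against 2.14% of all 22660 probes measured on both arrays, or at least 2-fold lower, against 1.42%. The median log2 ratio was 0.27 for the histone probes and 0.03 for all probes, and 33 of the 34 probes lay above 0. Of all probes, 12206 lay above 0 and 10454 below. Hist1h1b, the 1 probe not above 0, had 0.0625 on both arrays (0.999-fold). The 3 H2A probes with the largest ratios in the first comparison were near 0 on the log2 scale here: Hist1h2ai was at 0.09 ± 0.21, and Hist1h2ak and the dimmer Hist1h2af probe at 0.07 with errors of 0.21 and 0.20.

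The highest ratios of this comparison belonged to other members. In the authors' value table the second Hist1h1d probe was past 2-fold (1.43), against 0.44 ± 0.23 here. The first Hist1h1d probe had 0.564 in Chlorella swimming mice and 0.380 in nonswimming mice (0.57 ± 0.21). Hist1h2bc had 10.2 in Chlorella swimming mice and 7.07 in nonswimming mice (0.53 ± 0.20), and Hist1h2ba, an H2B gene known from testis, had 4.93 in Chlorella swimming mice and 3.54 in nonswimming mice (0.48 ± 0.20). Hist1h1c followed with 0.44 ± 0.20. The class medians ran from 0.18 for H2A to 0.41 for H1, with 0.31 for H2B, 0.26 for H4 and 0.19 for H3.

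**Figure D4:**
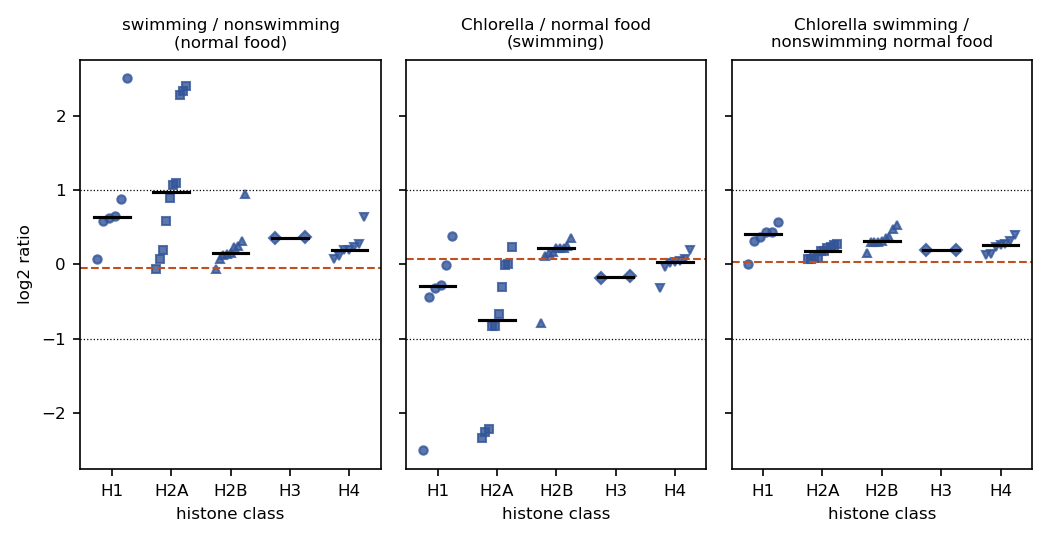
Log2 ratios (y axis) of the 34 measured histone probes by class (x axis) in the 3 comparisons, 1 panel each. Black bars are class medians, the dashed line is the median of all probes and dotted lines mark 2-fold; the H2A median is 0.98 in the left panel, -0.75 in the middle and 0.18 on the right.

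Over the 3 arrays, 18 of the 34 histone probes were highest on the swimming array, 16 on the Chlorella swimming array and 0 on the nonswimming array. Among all 22544 probes measured on all arrays, 42.4% were highest in Chlorella swimming mice, 23.5% in swimming mice on normal food and 34.1% in nonswimming mice. The nonswimming array was the lowest for 31 histone probes (91.2%), against 30.5% of all probes. These orders restate the ratios of the same 3 arrays and are not separate evidence. Many of them rest on small steps. The median histone log2 ratio was 0.27 in Chlorella swimming against nonswimming mice, and the median scanner error of the histone ratios was 0.2. The 14 probes that list several RefSeq transcripts may also share signal. By class, 8 of 10 H2A and 5 of 6 H1 probes and both H3 probes were highest on the swimming array, whereas 8 of 9 H2B and 5 of 7 H4 probes were highest on the Chlorella swimming array. Among H2B, the second Hist1h2bk probe had 12.8, 11.4 and 10.4 on the Chlorella swimming, swimming and nonswimming arrays, and Hist1h2bm 13.3, 11.4 and 10.3. Among H4, Hist1h4i had 19.2 in Chlorella swimming mice, 16.8 in swimming mice on normal food and 14.7 in nonswimming mice. The steps between these values are near the scanner error.

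By gene cluster, all 6 probes at least 2-fold higher in swimming than in nonswimming mice belonged to Hist1, on chromosome 13, which had 23 measured probes and a median log2 ratio of 0.37. The median was 0.25 over 5 Hist2 probes, 0.16 over 5 Hist3 probes and 0.12 for the Hist4 probe. In Chlorella swimming against nonswimming mice the medians were 0.30 for Hist1, 0.22 for Hist2, 0.18 for Hist3 and 0.13 for Hist4.

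The ratios also differed between dimmer and brighter probes, though weakly. Over the 34 measured histone probes, the Spearman rank correlation of brightness with the size of the swimming against nonswimming ratio was -0.24. In swimming against nonswimming mice, the 17 dimmer histone probes had a median log2 ratio of 0.62 with 4 at least 2-fold higher, and the 17 brighter ones 0.19 with 2. All probes parted at the same brightness had medians of -0.05 (807 of 17364 at least 2-fold higher) and -0.07 (73 of 5180). Probes that list 1 RefSeq transcript had a median of 0.58 (3 of 18 at least 2-fold higher), and those that list several 0.24 (3 of 14). What brightness or shared signal contributed was not tested.

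Some probes of one gene disagreed or lay outside its annotation. The 3 probes of Hist3h2a gave 0.08, 0.58 and -0.06 in swimming against nonswimming mice, and the first of them runs against the strand of the RefSeq gene. Of the 38 histone probes with both orientation and RefSeq strand at hand, 6 ran against the strand: those of Hist1h2ai and Hist2h2ac, the first Hist3h2a probe, both Hist2h2aa2 probes and 1 Hist1h1d probe. The first 3 of these were measured on all arrays. Of all 18372 such probes, 99.1% had matching ones. The 2 Hist1h1d probes measured on all arrays lie 1751 bases apart, against a RefSeq gene span of 776 bases. A further Hist1h1d probe on the opposite strand was above background on the nonswimming array only. It had 11.13 intensity units there, 1.421 in swimming mice on normal food and 1.419 in Chlorella swimming mice. Against nonswimming mice it was at least 1.99-fold lower in swimming mice and at least 1.48-fold lower in Chlorella swimming mice. The 2 probes of Hist1h2bk lie 66 bases apart and gave 0.07 and 0.13. The 2 probes named Hist1h2bc lie 1854818 bases apart, and only 1 was detected.

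Histone members not detected well above background on any array were Hist1h1t (the testis H1), Hist1h2ac, Hist1h2ae, Hist1h3a, the second Hist1h2bc probe, the first Hist2h2aa2 probe and the first Hist4h4 probe. The second Hist2h2aa2 probe was above background on the Chlorella swimming array only, with 8.694 intensity units there, against 5.902 in swimming mice on normal food and 6.225 in nonswimming mice.

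The members not past 2-fold in any comparison are given here with all 3 arrays in the order Chlorella swimming, swimming and nonswimming. Among H1, the scaled signals were 0.134, 0.166 and 0.108 for Hist1h1a, and 1.05, 1.27 and 0.809 for Hist1h1e. The first Hist1h1d probe had 0.564, 0.567 and 0.380, the second had 0.129, 0.175 and 0.0948, and Hist1h1c had 37.0, 28.5 and 27.2. All of these H1 probes were lowest in nonswimming mice, and Hist1h1c alone was highest with Chlorella. Among H2A, Hist2h2aa1 had 1.40, 1.41 and 1.23, and Hist2h2ac had 25.1, 40.1 and 21.6. The Hist3h2a probes had 0.312, 0.311 and 0.294 for the first, 3.74, 4.59 and 3.08 for the second and 5.22, 4.43 and 4.62 for the third. Hist3h2a thus differed little at the first probe, and its other probes were highest on different arrays.

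For H2B in the same array order, Hist1h2ba had 4.93, 4.15 and 3.54, Hist1h2bc 10.2, 8.80 and 7.07, and Hist2h2be 2.08, 1.91 and 1.61. The first Hist1h2bk probe had 4.66, 3.99 and 3.79, and Hist3h2bb had 11.1, 9.99 and 8.95. All of these were highest in Chlorella swimming mice and lowest in nonswimming mice, while the dim Hist1h2be probe had 0.0485, 0.0378 and 0.0395 and Hist3h2ba 0.140, 0.243 and 0.125. For H3, Hist1h3d had 13.2, 14.9 and 11.6 and Hist2h3c1 18.5, 20.7 and 16.3, both highest in swimming mice on normal food. For H4, Hist1h4a had 3.88, 3.98 and 3.29, Hist1h4f 29.5, 27.8 and 24.3, and Hist2h4 12.0, 11.8 and 9.98. The first Hist1h4d probe had 20.2, 19.4 and 18.3, the second 0.692, 0.866 and 0.555, and the detected Hist4h4 probe 3.12, 3.08 and 2.84. Every H4 probe was lowest in nonswimming mice.

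Genes that act beside the histones were described with 1 probe per gene, the brightest. On that basis 5.14% of all 15765 measured names were at least 2-fold higher in swimming than in nonswimming mice, and 4.86% of 15611 at least 2-fold lower in Chlorella against normal food. In Chlorella swimming against nonswimming mice 2.1% of 15440 were at least 2-fold higher and 1.48% lower. Of 36 measured genes of S-phase DNA synthesis, 11 were at least 2-fold higher in swimming than in nonswimming mice, with a median log2 ratio of 0.65. In Chlorella against normal food, 13 of 36 were at least 2-fold lower, with a median of -0.74. Mki67, a marker of cycling cells, had a scaled signal of 3.06 in swimming mice and 0.309 in nonswimming mice (3.31 on the log2 scale), Top2a, which untangles replicated DNA, 0.205 in swimming mice and 0.0268 in nonswimming mice (2.94), and Ccna2, the S-phase cyclin, 1.19 in swimming mice and 0.186 in nonswimming mice (2.68). In Chlorella against normal food the same 3 genes had log2 ratios of -3.08, -2.33 and -2.85. In Chlorella swimming against nonswimming mice the S-phase median was -0.01, with Pola1 at least 2-fold higher (1.27) and Cdc6 at least 2-fold lower (-1.10).

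Of 15 histone chaperones and assembly factors, 2 were at least 2-fold higher in swimming than in nonswimming mice. Asf1b, which hands H3 and H4 to assembly factors in dividing cells, had 0.883 in swimming mice and 0.239 in nonswimming mice (1.89), and Chaf1b, a subunit of chromatin assembly factor 1, had 0.739 in swimming mice and 0.240 in nonswimming mice (1.63). In Chlorella against normal food both were at least 2-fold lower, with log2 ratios of -2.28 and -1.57. The median of the list was 0.01 in swimming against nonswimming mice. Among 10 measured replication-independent histone variants, which are made outside S phase as well, 1 was at least 2-fold higher in swimming than in nonswimming mice: Cenpa, the centromeric H3, at 1.02. Their median was 0.32, close to the 0.30 of all replication-dependent probes and the 0.26 of those genes with 1 probe per gene. None of the 17 measured genes of histone mRNA transcription and 3′ end processing was past 2-fold, and Slbp, which binds the stem-loop, had log2 ratios of 0.56 in swimming against nonswimming mice and -0.59 in Chlorella against normal food.

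**Figure D5:**
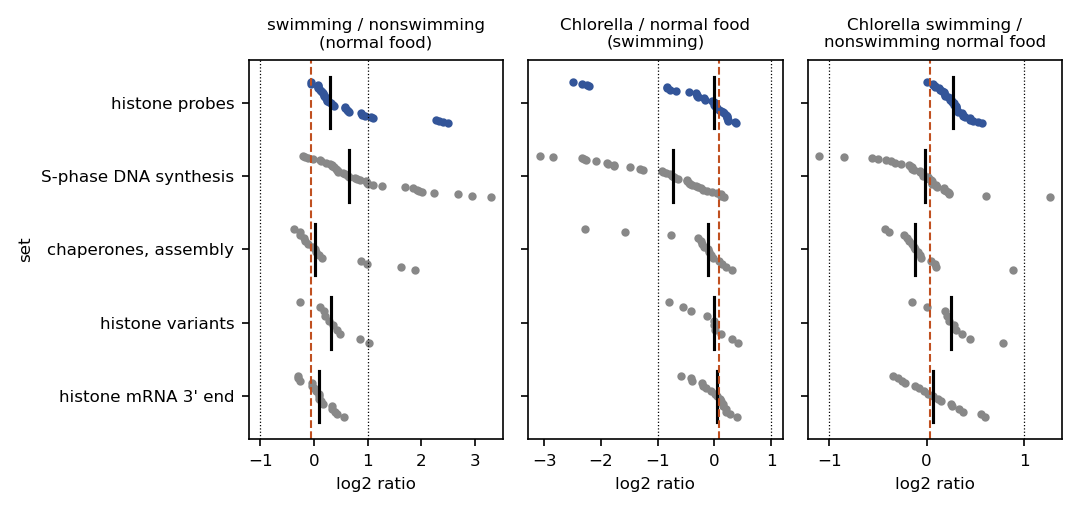
Log2 ratios (x axis) of the histone probes (blue) and of genes of 4 related lists (grey), in the 3 comparisons, 1 panel each. Each point is 1 probe or gene, black bars are medians, the dashed line is the median of all probes and dotted lines mark 2-fold; the S-phase median is 0.65 on the left, -0.74 in the middle and -0.01 on the right.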

How the data were processed

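Muscle RNA was pooled over 10 mice per group, labelled with Cy3 from 500 ng and hybridised to 1 array each, as the labels' protocols say. Scanner files were deposited with intensity values of Agilent Feature Extraction 9.5 (version per the submitters' processing notes), among them a background-subtracted signal with its error. A second deposited table gives the authors' log2 values for 13683 spots. Since it is unknown on what each probe was centred there, it entered only as differences between columns. Across probes these had r of 0.76, 0.81 and 0.71 with the scanner ratios, and 27 histone probes were measured in it.

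Controls and flagged outlier spots were dropped, repeated spots averaged, and each log2 signal was taken relative to its array's 75th percentile. A probe counted as higher or lower at 2-fold or more if it was well above background on both arrays. If it was so on the brighter array alone, a lower bound was set with the dim array at its lowest well-measured signal or, if higher, at the probe's own signal. With 1 array per group there was no test, and the 3 arrays, on 1 slide, limit the precision. Every member measured on all arrays is named. Of related lists, up to 3 genes past 2-fold and farthest from 0 in a comparison are named. Names of a list that fell on 1 probe were counted once. Slbp was added after its values were seen. Members and lists were chosen with earlier results of these data known. Alternatives were quantile and cyclic loess normalization (limma 3.58.1, R 4.3.3), median centring, the percentile over probes above background, normexp with an offset of 50, looser and stricter filters, 1 probe per gene, members at their bound, a limit of 1.96 scanner errors and the authors' table. Probes listing 1 RefSeq transcript were added as an alternative after seeing the data. Motifs were searched on both strands with Python 3.11.15. The steps were tested on simulated data.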

Additional observations from a re-analysis of the deposited data

How the results depend on the processing

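Counts of histone probes past 2-fold kept within 1.5 times of those reported under quantile and cyclic loess normalization, median centring, the percentile over probes above background, normexp and 1 probe per gene. Without the filter on dim probes, 10 were higher and 2 lower in swimming against nonswimming, 2 higher and 7 lower in Chlorella against normal food, and 2 higher and 1 lower in Chlorella swimming against nonswimming. At that setting 7.14% of all probes were higher and 4.52% lower in swimming against nonswimming, 4.52% and 6.64% in Chlorella against normal food, and 5.08% and 4.47% in Chlorella swimming against nonswimming, so 2 of 44 is near these shares. The stricter filter, with a signal of at least 50 and above background on both arrays compared, left 2 of 28 lower in Chlorella against normal food. The authors' value table had 1 higher in Chlorella swimming against nonswimming. Probes listing 1 RefSeq transcript, an alternative chosen after seeing the data, held 3 higher with a median log2 ratio of 0.58 in swimming against nonswimming, and 2 lower in Chlorella against normal food; these have fewer probes by construction. Over all alternatives the histone median ran from 0.14 to 0.58 in swimming against nonswimming, from -0.15 to 0.12 in Chlorella against normal food and from 0.21 to 0.30 in Chlorella swimming against nonswimming. Median centring placed the median of all probes at -0.20 in swimming against nonswimming and 0.22 in Chlorella against normal food; 25 of 34 histone probes then lay above 0 in the first and 32 above the median of all probes. Of all probes past 2-fold, the share that was higher moved from 80.1% to 66.6% in swimming against nonswimming and from 27.0% to 40.6% in Chlorella against normal food. Of the log2 ratios of single probes, 14 of 102 moved by more than their scanner error with normexp and 7 of 81 in the authors' table. None did under the other 4 scalings. Normexp here adds an offset of 50 intensity units to every signal, which by arithmetic draws the ratios of dim probes toward 0. What else moved single ratios was not tested. No paired analysis was possible because each group had 1 array. Ratios of dim probes such as Hist1h1b are limited by signal over background.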
